A study of Homo sapiens with 12 samples.

Results

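The nuclear genes that encode the structural subunits of oxidative phosphorylation were examined in HepG2 cells, a long-established cell line from a human hepatoma, after treatment with dexamethasone, KLA or both. Members were taken by gene symbol from 28256 symbols: NDUFA, NDUFB, NDUFC, NDUFS and NDUFV genes (complex I), SDHA to SDHD (complex II), UQCR genes (complex III), COX4 to COX8 genes with NDUFA4 and NDUFA4L2 (complex IV) and ATP5 genes (complex V). Of 93 matching symbols, 4 had no protein-coding RefSeq transcript, which left 89 members. For each member the protein-coding RefSeq transcript with the most counts over all libraries was used. For 11 members a transcript not of that kind had more counts. For other genes the transcript with the most counts of any kind was used. After the filter on low counts, 83 members entered the tests: all 37 of complex I, 4 of complex II, 9 of complex III and 20 of complex V, but 13 of the 19 of complex IV.

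Complexes I to IV form the respiratory chain of the inner mitochondrial membrane, which passes electrons from NADH and succinate to oxygen and pumps protons, and complex V uses the proton gradient to make ATP. Complex II is encoded wholly in the nucleus, while each of the others joins nuclear subunits to core proteins encoded by mitochondrial DNA, a single one in complex III. In liver-derived cells these genes are broadly expressed and their promoters are known to hold binding sites for NRF1 and for ETS-family factors such as GABPA.

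All cells had the labelled genotype WT and spent 24 h in medium with charcoal-stripped serum before 24 h of treatment. The DMSO group received the vehicle at 0.1%, the Dex group 50 nM dexamethasone, a synthetic glucocorticoid, and the KLA group KLA at a labelled 100 ng/µl, a unit that was not verified. The DexKLA group received both agents, and its own titles restate no dose. Each group had 3 libraries. The labels do not say whether these came from separate cultures, so the p-values measure the spread between these libraries only, which may be technical. HepG2 is a single tumour line. Its hepatocyte and hepatoma markers were high, with ALB at 60940 to 95239 CPM (counts scaled to library size) and AFP at 14649 to 38937 CPM, while PTPRC, COL1A1, COL3A1 and KRT5, markers of leukocytes, fibroblasts and basal epithelium, stayed at or below 0.443 CPM. The other listed markers of other cells were present, PECAM1 at 2.66 to 3.84 CPM and LYZ at 3943 to 4647 CPM.

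Library totals ran from 3321421 to 20937177 counts. The 6 deeper libraries were all 3 of KLA, replicates 1 and 3 of DexKLA and replicate 2 of Dex, and every DMSO library was shallower than every KLA library. Depth and treatment therefore cannot be told apart in KLA versus DMSO. DMSO replicate 1 and KLA replicate 3 lay at opposite ends of the first principal component (-38.6 and 23.7, on an axis holding 28.0% of the variance), and the counts, medians, length-matched values and related lists are given below without both as well. Members took between 1.14% and 1.58% of a library's counts.

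Sequence upstream of 4 members is shown because they span the responses described below: ATP5F1E, the ATP synthase subunit that led the calls after Dex and after KLA, COX5B and COX6A1, subunits of cytochrome c oxidase also called after each agent, and SDHD, a membrane anchor of complex II that was called in no comparison. Each run is the 250 bases before the RefSeq start of the gene in GRCh38.p14, 5′ to 3′ on the strand of the gene (minus for ATP5F1E, plus for the others). Capitals mark a match to the ETS motif CCGGAAG, which reads CTTCCGG on the other strand, or to the NRF1 motif core GCATGCGC, which reads GCGCATGC on the other strand, and these motifs do not overlap each other in the runs shown, although an NRF1 match on one strand can overlap one on the other, as in SDHD.
ATP5F1E, chr20:59032336-59032585: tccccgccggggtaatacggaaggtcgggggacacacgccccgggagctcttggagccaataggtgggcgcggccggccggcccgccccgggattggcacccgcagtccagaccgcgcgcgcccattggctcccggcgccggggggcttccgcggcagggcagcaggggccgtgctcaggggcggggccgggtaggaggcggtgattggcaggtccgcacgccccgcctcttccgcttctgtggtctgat
COX5B, chr2:97645812-97646061: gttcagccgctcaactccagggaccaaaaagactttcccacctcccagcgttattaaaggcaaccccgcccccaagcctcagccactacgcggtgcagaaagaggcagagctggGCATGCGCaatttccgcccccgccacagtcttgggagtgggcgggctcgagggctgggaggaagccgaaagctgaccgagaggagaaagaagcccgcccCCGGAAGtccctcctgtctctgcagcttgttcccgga
COX6A1, chr12:120437863-120438112: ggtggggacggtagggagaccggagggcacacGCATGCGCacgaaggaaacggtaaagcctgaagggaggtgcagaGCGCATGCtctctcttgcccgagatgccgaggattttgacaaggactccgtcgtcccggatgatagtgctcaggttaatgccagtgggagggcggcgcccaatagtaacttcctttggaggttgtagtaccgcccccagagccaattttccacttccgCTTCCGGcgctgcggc
SDHD, chr11:112086623-112086872: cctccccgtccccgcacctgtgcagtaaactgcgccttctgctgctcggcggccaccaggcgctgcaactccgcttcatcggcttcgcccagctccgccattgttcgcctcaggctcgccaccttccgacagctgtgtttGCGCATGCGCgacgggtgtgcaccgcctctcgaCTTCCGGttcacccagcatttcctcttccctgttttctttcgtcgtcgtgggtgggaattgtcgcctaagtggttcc

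RefSeq promoter entries were matched for 68 members. The NRF1 core stood in 11 of these windows (16.2%), against 4.87% of the windows of tested genes and 2.77% of all 27305 windows of the same length. The ETS motif stood in 16 (23.5%), against 16.2% of tested genes and 8.78% of all windows. A YY1 motif, AAGATGGC or GCCATCTT, stood in 1 (1.47%), against 1.84% of tested genes and 1.34% of all windows. COX5B, COX6A1, SDHB and SDHD held both an NRF1 and an ETS match, and the window of ATP5F1E held none of the 3 motifs. At least 1 of the 3 motifs stood in 23 of the 68 windows (33.8%), against 21.5% of tested genes and 12.2% of all windows. Of the 40 tested members with a window that were called after KLA, 16 held at least 1 of these motifs, and of the 24 that were not called, 7 did. These are letter matches in a fixed window and were not tested.

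In vehicle-treated cells the level per length differed widely between members. Levels between genes are compared as RPKM, TMM-normalised counts scaled to library size and transcript length, in the DMSO libraries. The median over the 83 tested members was 88.0, and by complex it was 69.8 for I, 38.4 for II, 111 for III, 112 for IV and 110 for V. ATP5ME, a membrane subunit of the ATP synthase, was the highest at 465 ± 37 RPKM (SD, n = 3), followed by UQCRHL at 461 ± 13, the catalytic beta subunit ATP5F1B at 433 ± 22 and COX5B at 427 ± 26. These neighbours differ by less than the sum of their SDs. Some of the other catalytic and core subunits were much lower. ATP5F1A, the alpha subunit, had 71.2 ± 4.1 RPKM, and NDUFV1, which holds the NADH-binding site of complex I, had 56.9 ± 3.9. The flavoprotein SDHA had 35.2 ± 4.6 and the Rieske protein UQCRFS1 had 31.9 ± 0.91. NDUFS1, an iron-sulfur subunit of complex I, had 16.9 ± 1.3 RPKM over an annotated length of 11639 bases, and SDHC had 3.57 ± 0.46 over 13271 bases, the longest of all members. A level per length depends on that annotated length.

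**Figure D1:**
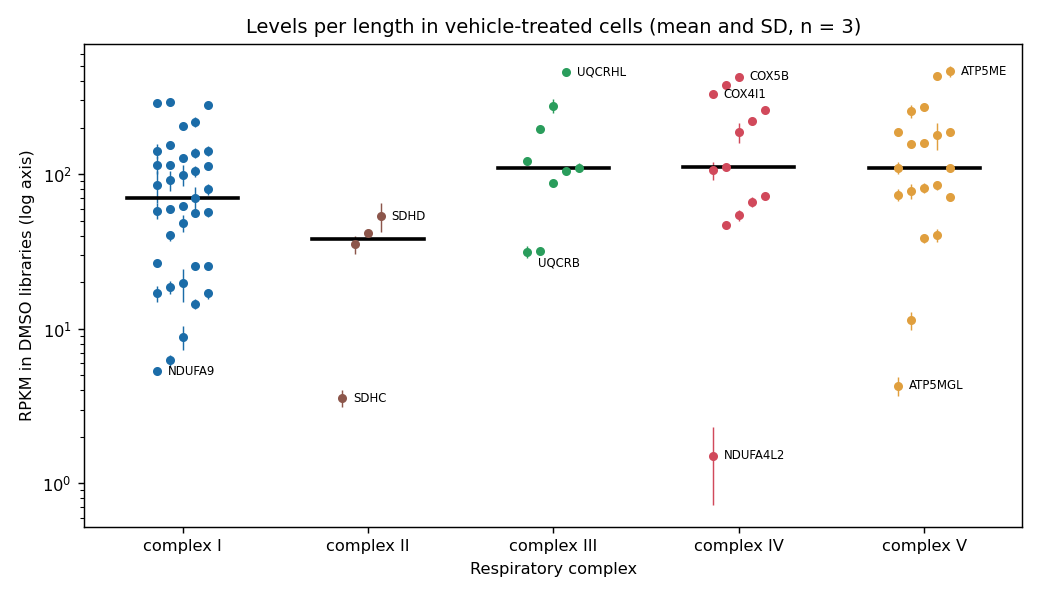
Mean RPKM in the 3 DMSO libraries (log axis) of each tested member by complex, with SD as a vertical line and the median of each complex as a black bar. Complexes III, IV and V have medians near 110, complex I lies at 69.8 and complex II at 38.4, and NDUFA4L2 is the lowest at 1.51.

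The isoform pairs of cytochrome c oxidase were expressed on one side only. COX4I1, the ubiquitous form of subunit 4, had 329 ± 7.1 RPKM in DMSO, while COX4I2, its hypoxia-linked form, had 0 to 5 counts in a library. COX7A2, the liver form of subunit 7A, had 91.8 to 121 CPM in DMSO, and the heart and muscle form COX7A1 had 0 to 2 counts. COX6B2 had 0 or 1 count beside COX6B1 at 120 to 128 CPM in DMSO. COX6A2, the heart and muscle form of subunit 6A, and COX7B2 and COX8C had 0 counts in all 12 libraries, which allows up to 0.025 CPM over the pooled total (3 counts, counting error only). These 6 are the members that failed the filter. NDUFA4, the subunit now placed in complex IV, had 54.4 ± 4.7 RPKM in DMSO, and its paralog NDUFA4L2 had 1.51 ± 0.79.

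UQCRH, the hinge protein of complex III, has an intronless copy, UQCRHL, whose transcript is identical to it at 505 of 515 aligned bases (98.1%). UQCRHL carried 2.79 to 3.23 times the counts of UQCRH in every library. Reads of this pair cannot be assigned with certainty, so their values are uncertain and not independent, although each is counted as a member below. The readthrough entries NDUFC2-KCTD14 and ATP5MF-PTCD1 share exons with NDUFC2 and ATP5MF, and ATP5MGL is a copy of ATP5MG at 3.05 to 3.93 CPM in DMSO. NDUFC2-KCTD14 had 896 counts beside 1010 for NDUFC2 in DMSO replicate 1, and 7780 beside 9629 in KLA replicate 3. The values of a readthrough entry and its gene are not independent, although each is counted as a member below. For 7 members the annotation lists several loci, NDUFS1 among them, and their reads may be split.

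After Dex, 8 members rose and none fell, 3 of them in complex V, 3 in IV and 1 each in I and III. Calls used a threshold of 0.05 on the adjusted p (edgeR quasi-likelihood test, Benjamini-Hochberg over 13198 genes). The 8 of 83 compare with 1.23% of all tested genes called higher and 0.826% called lower. The median log2 change of the 83 was 0.34, against -0.01 over all tested genes, and 77 of 83 were above 0, as were 48.2% of all genes. In 52 members all 3 Dex libraries lay above all 3 DMSO libraries, which held for 14.4% of all genes, and in 0 members did they lie below (13.6% of all genes). In bulk RNA of this kind, fewer cells of a type and less RNA per cell cannot be told apart.

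ATP5F1E, the epsilon subunit in the central stalk of the ATP synthase (chromosome 20, 59025475 to 59032335, hg38), had 358, 415 and 420 CPM in DMSO and 527, 694 and 650 CPM in Dex. All Dex libraries were above all DMSO libraries, and the log2 change was 0.65 ± 0.14 (SE, n = 3 per group), adjusted p = 0.0157 by edgeR. ATP5PO, the peripheral-stalk subunit known as OSCP (chromosome 21, 33903453 to 33915804), had 171, 200 and 206 CPM in DMSO and 256, 320 and 305 CPM in Dex. Its groups did not overlap either, and it rose by 0.61 ± 0.13 (adjusted p = 0.0166, edgeR).

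COX7B, a small accessory subunit of complex IV (chromosome X, 77899468 to 77907376), had 114, 112 and 118 CPM in DMSO and 135, 189 and 180 CPM in Dex. The DMSO libraries lay close together, Dex replicate 1 was the lowest of the treated libraries, and the log2 change was 0.56 ± 0.14 (adjusted p = 0.0336, edgeR). ATP5MD, a membrane-domain subunit also known as DAPIT (chromosome 10, 103389051 to 103396475), had 51.4, 57.9 and 57.1 CPM in DMSO and 69.4, 92.6 and 95.1 CPM in Dex, a log2 change of 0.63 ± 0.16 (adjusted p = 0.0445, edgeR). The other called members were NDUFA7, an accessory subunit of complex I (0.51, adjusted p = 0.0230), COX6A1 (0.48, 0.0372), UQCRC1, a core protein of complex III (0.41, 0.0372), and COX5B (0.52, 0.0445).

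By complex the Dex calls were 1 of 37 in complex I, 0 of 4 in II, 1 of 9 in III, 3 of 13 in IV and 3 of 20 in V. Their median log2 changes were 0.31, 0.12, 0.41, 0.45 and 0.36. In complex III all 9 members had Dex libraries wholly above DMSO. In complex II the log2 changes were 0.21 for SDHD, 0.16 for SDHB, 0.07 for SDHC and -0.23 for SDHA. The count of 8 fell to 0 without DMSO replicate 1, Dex replicate 2 or Dex replicate 3, to 1 or 2 without DMSO replicate 2 or 3, and to 4 without DexKLA replicate 2. It was 18 without Dex replicate 1, 34 without KLA replicate 3 and 25 without DexKLA replicate 3. It was 9 without DMSO replicate 1 and KLA replicate 3 together. Within the 6 shallower libraries, which hold only replicates 1 and 3 of Dex, it was 19. The median stayed between 0.27 and 0.42 in all of these fits. Over all genes 271 (2.05%) were called in the fit of all libraries. Without DMSO replicate 1 the calls were 64 (0.464%), and without DMSO replicate 2 or 3 they were 126 (0.912%) and 102 (0.739%). Without Dex replicates 1 to 3 in turn they were 313 (2.27%), 55 (0.426%) and 73 (0.529%). They were 919 (7.13%) without KLA replicate 3, 208 (1.51%) without DexKLA replicate 2 and 720 (5.58%) without DexKLA replicate 3. Without DMSO replicate 1 and KLA replicate 3 together they were 268 (2.02%), and within the 6 shallower libraries 489 (3.8%).

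**Figure D2:**
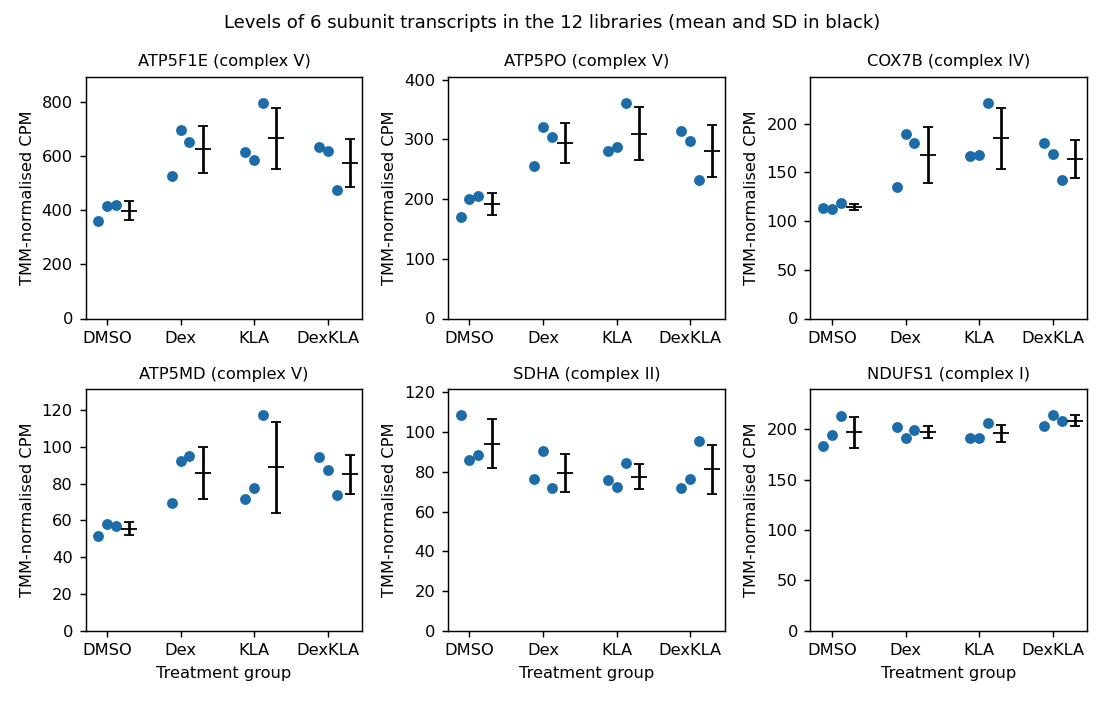
TMM-normalised CPM of 6 members in each of the 12 libraries (points, replicates 1 to 3 from left to right) with mean and SD of each group in black. ATP5F1E, ATP5PO, COX7B and ATP5MD lie above the DMSO libraries in every treated library, while NDUFS1 overlaps DMSO in each group and SDHA lies below DMSO only in KLA.

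After KLA, 49 of the 83 tested members rose and none fell, from every complex except II. Among all tested genes 7.93% were called higher and 5.89% lower. The median log2 change was 0.43, against -0.02 over all genes, and 75 of 83 were above 0 (47.7% of all genes). All 3 KLA libraries lay above all 3 DMSO libraries in 60 members (17.8% of all genes) and below them in 3 (18.3% of all genes). No member was called lower by edgeR in this fit, or by DESeq2 or limma voom. Of the alternative edgeR fits given below, the one with the length trend removed called 2 lower. The one with library size alone called 1 lower. At an unadjusted p under 0.05 (edgeR, this fit), 2 members were lower, against 15.9% of all genes.

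In complex V, 12 of 20 rose. ATP5F1E had 613, 585 and 795 CPM in KLA, above all its DMSO libraries, a log2 change of 0.74 ± 0.14 (adjusted p = 0.00822, edgeR). ATP5PO had 280, 287 and 361 CPM, also above all of DMSO, with a log2 change of 0.68 ± 0.13 (adjusted p = 0.00832, edgeR). KLA replicate 3 was the highest library for both. ATP5MD had 71.8, 77.7 and 117 CPM (0.68, adjusted p = 0.0128), and ATP5ME, a subunit at the dimer interface, had a log2 change of 0.68 (adjusted p = 0.0106, edgeR). The catalytic pair did not follow: ATP5F1A had 436, 393 and 398 CPM in DMSO and 364, 357 and 391 CPM in KLA, with KLA wholly below DMSO, a log2 change of -0.14 and an adjusted p of 0.348 (edgeR). ATP5F1B was at -0.06 (adjusted p = 0.710). ATP5IF1, which inhibits ATP hydrolysis by the enzyme, was at 0.39 and missed the threshold (adjusted p = 0.0833).

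In complex IV, 8 of 13 rose. COX7A2 (chromosome 6, 75237675 to 75250298) had 91.8, 121 and 111 CPM in DMSO and 156, 161 and 222 CPM in KLA, without overlap, and a log2 change of 0.73 ± 0.14 (adjusted p = 0.00874, edgeR). COX7B had 166, 168 and 221 CPM in KLA, above its DMSO libraries, with a log2 change of 0.69 ± 0.13 (adjusted p = 0.00874, edgeR). COX6A1, COX6B1 and NDUFA4 were called at 0.49, 0.40 and 0.55. The members not called included COX4I1, the largest nuclear subunit, COX5A and COX8A: COX4I1 was at 0.23 (adjusted p = 0.162), COX5A at -0.00 (0.991) and COX8A at -0.11 (0.558).

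All 9 members of complex III were called higher, the uncertain pair UQCRH and UQCRHL included, with log2 changes from 0.32 for UQCRC1 to 0.69 for UQCRB, a small subunit in the ubiquinone-binding region. In the 12 fits that each left out 1 library, the core protein UQCRC2 kept its call in 2 and UQCRC1 in 6, and none of the 9 was called without DMSO replicate 1. UQCRB had 141, 166 and 162 CPM in DMSO and 226, 219 and 309 CPM in KLA, again without overlap (adjusted p = 0.0111, edgeR). UQCRFS1, which carries the Rieske iron-sulfur cluster, rose by 0.43 (adjusted p = 0.0188). The pair UQCRH and UQCRHL gave 0.55 and 0.57 (adjusted p = 0.0151 and 0.0102) and share reads.

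In complex I, 20 of 37 rose, mostly accessory subunits, with the core subunits NDUFS3 and NDUFV2 among them (0.45 and 0.50). NDUFC2 and its readthrough entry NDUFC2-KCTD14 were both counted among the 20. NDUFA7 had 62.9, 68.5 and 64.1 CPM in DMSO and 93.2, 94.1 and 108 CPM in KLA, without overlap, and rose by 0.59 ± 0.11 (adjusted p = 0.00832, edgeR). NDUFB1, the shortest transcript of the complex at 311 bases, rose by 0.58 (adjusted p = 0.0343). NDUFS1 had 183, 194 and 213 CPM in DMSO and 191, 191 and 206 CPM in KLA, overlapping values with a log2 change of -0.01 (adjusted p = 0.974). NDUFV1 was at -0.16 (adjusted p = 0.351). NDUFA10, an accessory subunit, lay wholly below DMSO at -0.26 (adjusted p = 0.0826).

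None of the 4 members of complex II was called after KLA. SDHA had 108, 85.9 and 88.2 CPM in DMSO and 75.9, 72.1 and 84.4 CPM in KLA, wholly lower but with a log2 change of -0.28 ± 0.13 and an adjusted p of 0.137 (edgeR). The iron-sulfur subunit SDHB was at 0.19 (0.250), SDHC at 0.18 (0.345) and SDHD at 0.36 (0.0772). The difference between complexes was not tested.

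The number of members called after KLA was 0 without DMSO replicate 1, 18 without KLA replicate 3, 30 without DMSO replicate 3 and 0 without DMSO replicate 1 and KLA replicate 3 together. Over all genes, of which 1825 (13.8%) were called in the fit of all libraries, the calls in these fits were 5 (0.036%), 603 (4.68%), 910 (6.59%) and 6 (0.045%). Without both libraries the median log2 change of the members was 0.26, and by complex it was 0.21 for I, 0.07 for II, 0.38 for III, 0.40 for IV and 0.29 for V. The median lay between 0.32 and 0.50 when any 1 library was left out.

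**Figure D3:**
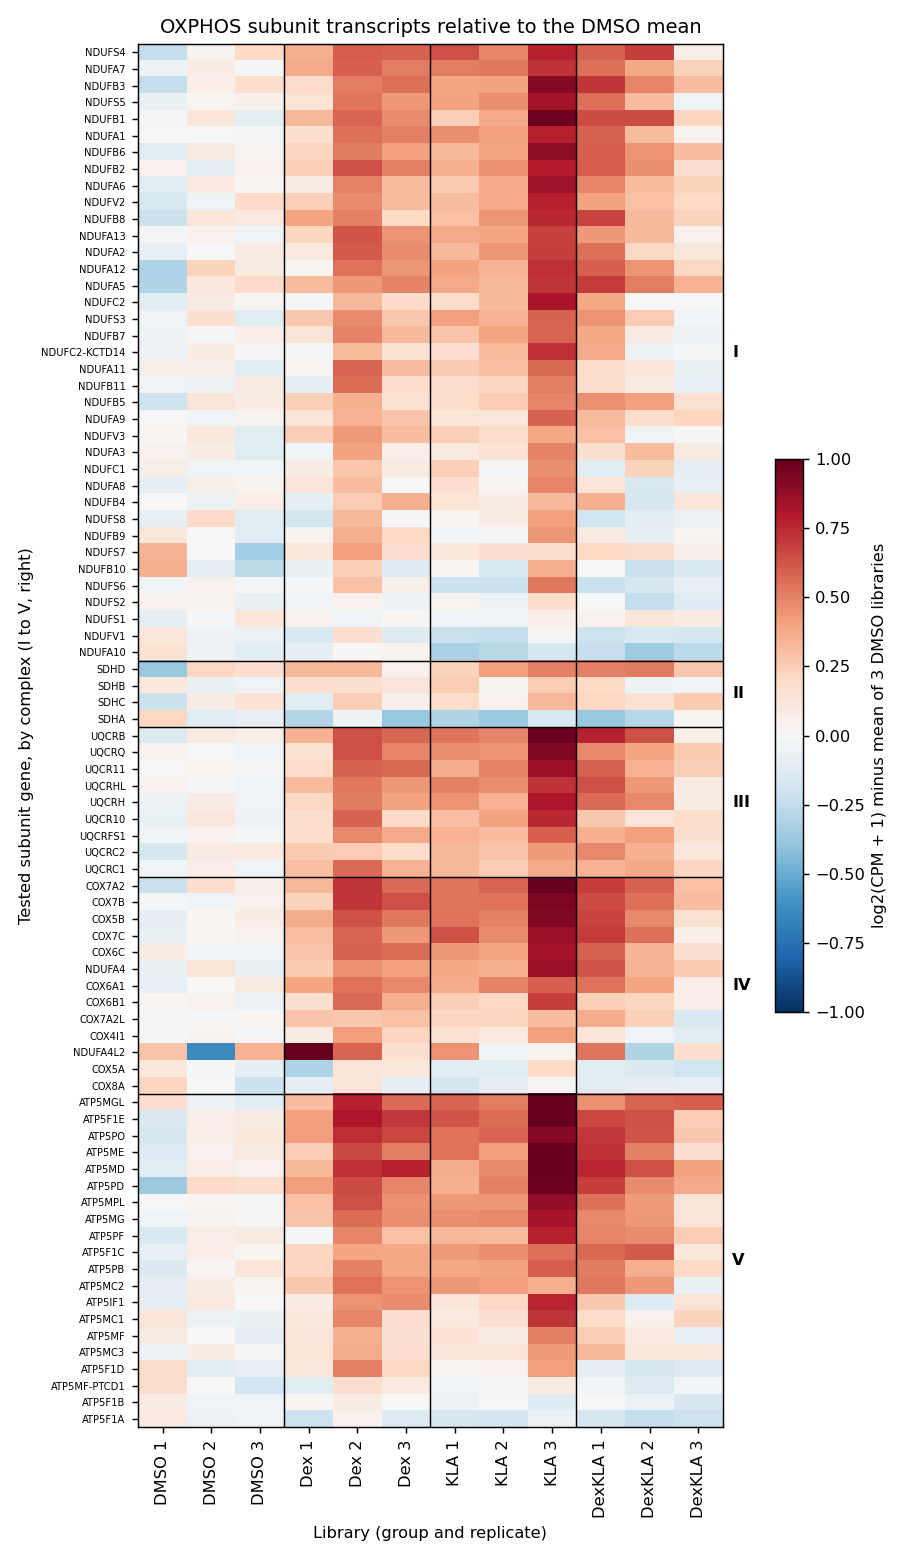
Difference in log2(CPM + 1) from the mean of the 3 DMSO libraries (colour) for the 83 tested members (rows, by complex and by their change after KLA) in the 12 libraries (columns). Most rows are above DMSO in Dex, KLA and DexKLA, KLA replicate 3 is the strongest column and DexKLA replicate 3 the weakest of the treated ones, and a group including SDHA, NDUFA10, NDUFV1 and ATP5F1A is pale or blue.

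After both agents, 7 members rose against DMSO and none fell, where 2.89% of all tested genes were called higher and 1.39% lower. The median log2 change of the 83 was 0.30, with 68 above 0 (47.8% of all genes). The DexKLA libraries lay wholly above DMSO in 42 members (13.4% of all genes) and wholly below in 5 (12.8%), which were ATP5F1A, COX5A, NDUFA10, NDUFS6 and NDUFV1. ATP5PO had 313, 298 and 232 CPM, ATP5F1E 632, 617 and 473, and COX7B 180, 168 and 142. Replicate 3 was the lowest in each, and each still lay above all DMSO libraries. Their log2 changes were 0.54, 0.53 and 0.51 (adjusted p = 0.0258, 0.0365 and 0.0389, edgeR). The others called were ATP5MD (0.61), ATP5F1C, the gamma subunit that turns inside the catalytic head (0.45), NDUFA5 (0.51) and COX7A2 (0.52).

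ATP5F1E, ATP5PO, ATP5MD and COX7B were the 4 members called in all 3 comparisons with DMSO. These comparisons share the same 3 DMSO libraries, so they do not support each other. The count of 7 after both agents was 0 without DMSO replicate 1 or 2 or DexKLA replicate 1 or 2, and 1 without DMSO replicate 3, without Dex replicate 3 or without DMSO replicate 1 and KLA replicate 3 together. It was 30 without KLA replicate 3 and 38 without DexKLA replicate 3. The 6 shallower libraries hold only replicate 2 of DexKLA, and the median log2 change of the members within them was 0.31. Over all genes 565 (4.28%) were called in the fit of all libraries. Without DMSO replicates 1 to 3 in turn the calls were 48 (0.348%), 212 (1.53%) and 254 (1.84%). Without DexKLA replicates 1 to 3 in turn they were 99 (0.768%), 81 (0.586%) and 1457 (11.3%). They were 266 (1.93%) without Dex replicate 3 and 1084 (8.41%) without KLA replicate 3. Without DMSO replicate 1 and KLA replicate 3 together they were 190 (1.43%).

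With Dex added to KLA, no member was called by edgeR (0 of 83), where 0.636% of all genes were called. The DESeq2 and limma voom tests also called none. At an unadjusted p under 0.05 (edgeR), 11 members were lower, against 4.42% of all genes. The median log2 difference of DexKLA from KLA was -0.16, with 7 of 83 above 0 (50.5% of all genes). In 5 members all DexKLA libraries lay below all KLA libraries (7.14% of all genes): ATP5F1D, NDUFA11, NDUFB11, NDUFS8 and UQCR10, with log2 differences between -0.31 and -0.26. Short genes in general lay lower too: under 800 bases the median was -0.19 for members and -0.16 for other genes, and against genes of matched length the median member differed by -0.04, with 29 of 83 above their matched genes. Without KLA replicate 3 the member median was -0.03, as it was without DMSO replicate 1 and KLA replicate 3 together. Adding KLA to Dex likewise gave 0 of 83 called by edgeR, DESeq2 or limma voom, as for 0.0% of all genes. At an unadjusted p under 0.05 (edgeR), 3 members were lower, against 2.82% of all genes. The median was -0.09, with 17 of 83 above 0 (50.9% of all genes). Of the 83, 40 lay above their matched-length genes.

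The interaction compares the change after both agents with the sum of the changes after each alone. It uses the same 3 DMSO libraries as those changes, with the opposite sign to the changes after each agent. It is therefore not independent of them. No member was called (edgeR; 0.0379% of all genes were), but 4 of 83 were above 0, where 51.3% of all genes were, and 55 had an unadjusted p under 0.05, all of them below 0, as had 10.5% of all genes in that direction. The median was -0.51. Other short genes were also below 0: under 800 bases the median was -0.61 for members and -0.46 for other genes, from 800 to 1600 bases -0.50 and -0.33, and 16 of 83 members lay above their matched-length genes, the median difference being -0.16. With the length trend removed the member median was -0.21. ATP5F1E had the value -0.86 ± 0.19 and NDUFA7 -0.71 ± 0.16, both with an adjusted p of 0.0541 (edgeR). The DESeq2 test called 33 members below 0 and 3.08% of all genes in that direction, and limma voom called 0 of either. Without Dex replicate 1, KLA replicate 2 or DexKLA replicate 1, edgeR called 25, 17 and 28 members. The calls over all genes in these fits were 467 (3.38%), 447 (3.46%) and 670 (5.19%). Each of the 9 other fits that left out 1 library called 0 members. Without DMSO replicate 1 and KLA replicate 3 together no gene was called by edgeR, and the member median was -0.33.

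The median of the members moved from library to library, and so did the median of other short transcripts. Relative to DMSO, the median shift of the members in log2(CPM + 1) was 0.18, 0.49 and 0.32 in the Dex libraries, 0.30, 0.33 and 0.61 in KLA and 0.45, 0.31 and 0.10 in DexKLA. The same medians for other genes with transcripts under 800 bases were 0.10, 0.32 and 0.24, then 0.21, 0.20 and 0.42, then 0.26, 0.15 and 0.00. KLA replicate 3 was the highest library and DexKLA replicate 3 the lowest treated library by both measures. The shallower treated libraries, Dex replicates 1 and 3 and DexKLA replicate 2, also lay above all 3 DMSO libraries, which were at -0.04, 0.04 and -0.01.

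**Figure D4:**
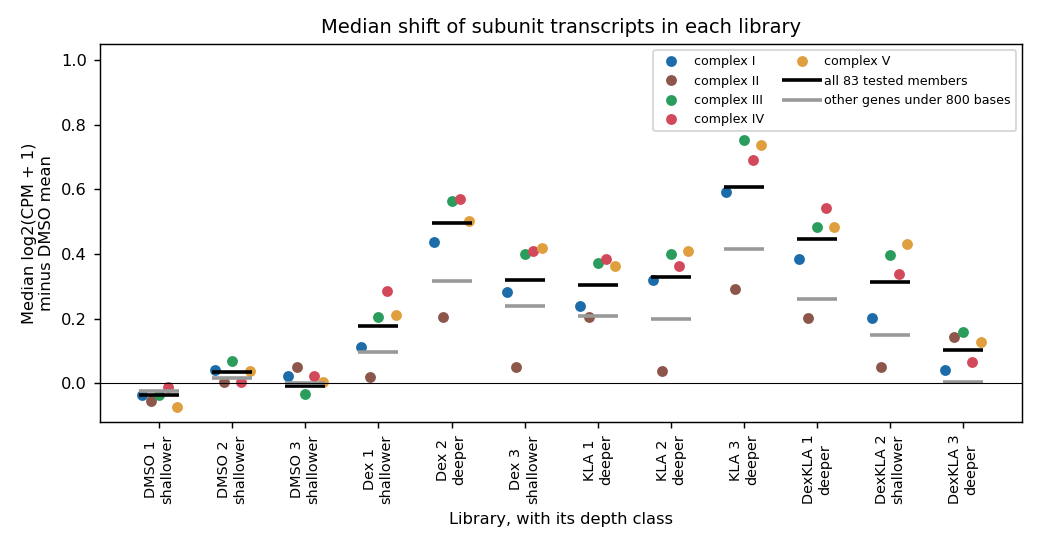
Median shift in log2(CPM + 1) from the DMSO mean in each library, for all tested members (black bars), each complex (coloured points) and other genes with transcripts under 800 bases (grey bars). The members run from 0.10 in DexKLA replicate 3 to 0.61 in KLA replicate 3, above the short genes in each treated library, and complex II is the lowest complex in every treated library except DexKLA replicate 3.

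The members are short, with a median length of 1067 bases against 3126.5 over all tested genes, and the median change differed with length. After KLA the median log2 change of members under 800 bases was 0.55 (33 members) and that of other genes of this length 0.31. From 800 to 1600 bases the medians were 0.40 (24 members) and 0.23, from 1600 to 3200 bases 0.39 (15 members) and 0.05, and above 3200 bases 0.28 (11 members) and -0.16. After Dex the member medians in these 4 ranges were 0.43, 0.34, 0.25 and 0.25, and those of other genes 0.26, 0.20, 0.04 and -0.13. The members stood above the other genes in each range. Length here is the annotated length of the 1 transcript used per gene. The ranges, the matched genes and the length trend below all depend on it.

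Each member was also set beside the non-members whose length lay between 0.8 times its own and its own divided by 0.8. After KLA 66 of 83 members were above the median of their matched genes, by a median of 0.20, and after Dex 67 were, by 0.14. After both agents 60 were, by 0.18. Without DMSO replicate 1 and KLA replicate 3 the counts were 60 by 0.13 after KLA, 67 by 0.11 after Dex and 62 by 0.16 after both agents. For complex III the median excess after KLA was 0.24, for V 0.25, for IV 0.20, for I 0.12 and for II 0.07. With the length trend removed within each library, 20 members were called after KLA, 18 of them higher: ATP5F1E was at 0.78, COX7B at 0.64 and UQCRB at 0.82, while COX8A fell by 0.46 and NDUFV1 fell by 0.32. After Dex, ATP5F1E (0.69) and COX7B (0.52) were called in that fit. The share of the shift that goes with length, library depth or RNA quality was not tested beyond these values.

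**Figure D5:**
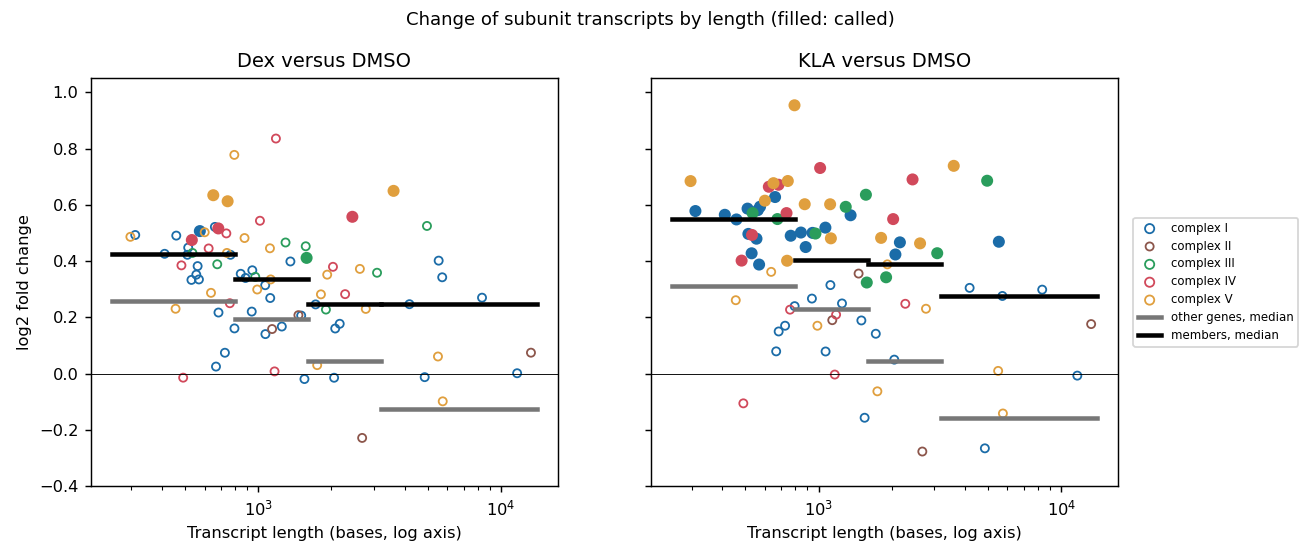
Log2 fold change against annotated transcript length (log axis) for the 83 tested members after Dex and after KLA, coloured by complex and filled where called, with the medians of members (black) and of other genes (grey) in 4 length ranges. Both medians are highest under 800 bases, and the members lie above the other genes in each range, by 0.55 against 0.31 under 800 bases and 0.28 against -0.16 above 3200 bases after KLA.

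Related gene lists were read in the same fit, in which 7.93% of all genes were called higher after KLA. Among non-members the share was 22.8% under 800 bases, 20.3% from 800 to 1600 bases and 7.58% from 1600 to 3200 bases. These 4 shares were 2.89%, 3.83%, 4.63% and 3.16% after both agents, and 1.23%, 4.74%, 2.93% and 1.11% after Dex. Without DMSO replicate 1 and KLA replicate 3, no gene of the 5 lists below was called after KLA, and their medians were 0.23 for the other carriers, 0.19 for assembly factors, 0.25 for ribosomal proteins, 0.01 for the citric acid cycle and 0.00 for regulators. After both agents 1 gene of the lists was then called, in the citric acid cycle, and after Dex 2 assembly factors, 1 citric acid cycle gene and 1 ribosomal protein. Of 7 tested subunits and electron carriers outside the naming rule, 3 rose after KLA: NDUFAB1, the acyl carrier protein of complex I (0.43), CYCS, cytochrome c (0.43), and ETFA, which delivers electrons from fat oxidation (0.35). CYCS also rose after both agents (0.50), and none was called after Dex. Of 51 assembly factors, 13 rose after KLA and none fell, among them the copper chaperone COX17 (0.69), NDUFAF4 (0.65) and UQCC2 (0.65). SDHAF4, an assembly factor of complex II, was the single one called after Dex (0.92, adjusted p = 0.0123, edgeR) and rose after both agents with NDUFAF4. Its partners in complex II were not called.

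Of 82 tested mitochondrial ribosomal proteins, which translate the subunits encoded by mitochondrial DNA, 36 rose and 1, MRPL10, fell after KLA (-0.37), and 13 rose after both agents. After Dex 4 rose: MRPL40 (0.58), MRPS36 (0.58), MRPL21 (0.52) and MRPS23 (0.51). MRPL40 was also called after KLA, at 0.64. Of 17 citric acid cycle genes, 4 rose after KLA (SUCLG1, SUCLA2, PDHB and DLD) and 2 fell, citrate synthase CS (-0.46) and DLAT (-0.41), a subunit of pyruvate dehydrogenase. SUCLG1, a subunit of succinyl-CoA ligase, was called after Dex (0.66), KLA (0.54) and both (0.61). Of 13 tested regulators of mitochondrial biogenesis, the coactivator PPRC1 fell by 0.46 after KLA and no other was called in any comparison with DMSO. The median lengths of these lists were 2275 bases for the other carriers, 1764 for assembly factors, 1389.5 for ribosomal proteins, 2341 for the citric acid cycle and 4423 for regulators. No symbol in the deposited values matched the names searched for genes of mitochondrial DNA, so these genes were not analysed here.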

How the data were processed

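RNA was measured by sequencing in 12 libraries of HepG2 cells, 3 in each of 4 treatment groups. Per the submitters' processing notes, Trimmomatic, BWA 0.7.17, HOMER 4.10 and the hg38 genome were used, with no role stated. The deposited values, taken to be expected counts per RefSeq transcript, came from the authors in steps of 0.5. The sources used here give neither the counting step nor the strand, so overlapping and antisense genes cannot be separated. They were rounded to whole counts. Of 70507 transcripts, 406 without a symbol (1.71% to 2.55% of a library's total) were left out. The authors' deposited table gives transcript length, which was used for RPKM.

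Members and gene lists were chosen with earlier results of these data known. Tests used the quasi-likelihood functions of edgeR 4.0.16 (R 4.3.3) on all 12 libraries, with TMM scaling, a group mean for each treatment and 8 residual degrees of freedom. The filterByExpr filter (minimum count 10) left 13198 genes. Fits were checked on simulated data. Errors of log2 changes are standard errors, taken as the log2 change divided by the square root of F. Library depth set the precision: the shallowest library had 3321421 counts. Floors of 3 counts cover counting error only. Same-numbered replicates of different groups did not deviate together (correlations from -0.314 to 0.178), so the groups were compared unpaired. No 2 libraries of a group agreed within sampling noise.

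Alternatives were other scalings, DESeq2 1.42.0, voom of limma 3.58.1, other filters, a replicate block, the longest transcript, fits on the compared libraries alone, thinning to the shallowest library, depth as a covariate, removal of the length trend, and leaving out each library. Leaving out DMSO replicate 1 with KLA replicate 3, and fits within the 6 shallower or the 6 deeper libraries, were chosen after seeing the data. Named by rule were core subunits, isoform pairs, the shortest and longest members of each complex, the 5 called members with the smallest p per comparison and up to 3 per other list. COX5B, UQCRC1 and ATP5MD after Dex, ATP5MD and ATP5ME after KLA, COX7A2 after both agents, NDUFA7 and ATP5F1E in the interaction, NDUFA5 and NDUFS3, NDUFV2, SDHD, NDUFA10, NDUFS6, ATP5F1D, NDUFA11, NDUFB11, NDUFS8, UQCR10, CS, DLAT, DLD, MRPL10, MRPL21 and the members named with the promoter windows were chosen after their values were seen. The 8-letter NRF1 core replaced a longer form that had been searched first.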

Additional observations from a re-analysis of the deposited data

How the results depend on the processing

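The median log2 change of the tested members kept its sign in every comparison with DMSO under every alternative run. The counts of called members did not hold. They are given with the share of all genes called in the same fit in parentheses. For Dex versus DMSO (8 called) they were 4 with library size alone (3.06%), 25 with DESeq2 (5.00%), 33 with no filter (4.29%), 3 with the replicate block (1.17%), 46 with only the libraries compared (11.2%), 2 with thinned libraries (0.461%), 2 with depth class as a covariate (1.02%), 2 with the length trend removed (1.53%) and 19 within the 6 shallower libraries (3.8%). For KLA versus DMSO (49 called) they were 24 with thinned libraries (4.83%), 0 with depth class as a covariate (0.03%), 20 with the length trend removed (8.15%, 2 of the 20 lower) and 0 without DMSO replicate 1 and KLA replicate 3 (0.045%). For DexKLA versus DMSO (7 called) they were 1 with library size alone (3.67%), 24 with DESeq2 (7.02%), 2 with limma voom (2.49%), 30 with no filter (4.75%), 3 with the replicate block (2.47%), 20 with only the libraries compared (5.35%), 2 with thinned libraries (0.518%), 0 with depth class as a covariate (1.29%), 1 without DMSO replicate 1 and KLA replicate 3 (1.43%) and 17 within the 6 shallower libraries (6.65%). For the interaction (0 called) they were 5 with library size alone (1.86%), 33 with DESeq2 (5.38%) and 39 with no filter (5.02%). Thinning, the covariate and left-out libraries use fewer counts, degrees of freedom or samples. The cause of these differences was not tested.

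Leaving out 1 library at a time gave 0 to 34 called members for Dex, 0 to 50 for KLA and 0 to 38 for DexKLA against DMSO. It gave 0 to 28 for the interaction, and 0 in each case for DexKLA against KLA and against Dex. The share of all genes called in these fits ran from 0.426% to 7.13% for Dex and from 0.0362% to 18.3% for KLA. It ran from 0.348% to 11.3% for DexKLA against DMSO and from 0.0% to 5.19% for the interaction. For DexKLA against KLA it was 0.369% to 0.768%, and against Dex 0.0%. The replicate block left 41 members called after KLA (10.1% of all genes), and the replicate numbers share only a label. Library size alone moved the median of all genes to -0.13 after KLA and -0.11 after Dex, turned the calls over all genes after KLA from 1047 higher and 778 lower to 542 higher and 1756 lower, and called NDUFA10 lower (-0.38). Over single named members that were called, 546 of 763 alternative values kept the call and 217 lost it, and over those not called, 149 of 3668 gained one. Counts near 0 limit the statements on the 6 untested isoforms.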
